A study of Drosophila melanogaster with 2 samples.

Results

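The genes described here are 8 listed genes of the mesoderm and muscle of the fly: 5 regulators, Mef2, twi, tin, bap and how, and 3 genes for structural proteins, sls, Mhc and Act57B. They were taken by name, as 8 of the 13968 protein-coding genes on the chromosome arms of the Ensembl annotation, and every peak whose summit lay inside the gene or within 5 kb of it was collected. The peaks came from chromatin immunoprecipitation with sequencing of Crc, the fly counterpart of the stress-response factor ATF4, in whole embryos of both sexes aged 0 to 24 h. All embryos were of the strain crc-MiMIC-GFP, in which an eGFP exon inside an intron of crc yields a Crc-eGFP fusion protein, precipitated through GFP. There were 2 biological replicates of this 1 group, and no untagged or input library was analysed here. Because whole embryos were used, strong binding in a few cells and weak binding in many cannot be told apart, and no peak can be assigned to mesoderm or muscle cells.

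Muscle of the fly embryo is built by a chain of regulators. Twist, the basic helix-loop-helix factor encoded by twi, specifies the mesoderm and switches on tin and Mef2; Tinman, an NK homeodomain factor, patterns the dorsal mesoderm and heart and activates bap, whose product directs the visceral mesoderm. Mef2, a MADS-box factor, then drives the genes of the contractile apparatus in all muscle types. The how gene (held out wings) encodes a STAR-family RNA-binding protein that acts in muscle and tendon cells. Among the structural genes, sls encodes the titin-like protein Sallimus, Mhc the muscle myosin heavy chain and Act57B a muscle actin.

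The sequences around the summits of tin, how and sls are shown because each of these genes had 1 optimal peak. Optimal peaks are those in the authors' list thresholded by the irreproducible discovery rate, derived from the data of both replicates. Such a peak need not have a counterpart in each replicate: 94.6% of all optimal peaks had a summit within 100 bp in both. Each run covers 201 bp centred on the summit on the forward strand of dm6, read from the RefSeq copy of Release 6, and capitals mark E-boxes (CANNTG), the site class bound by Twist and other basic helix-loop-helix factors. The tin window is chr3R:21378596-21378796, 281 bp upstream of the tin start at its centre. The how window is chr3R:22049248-22049448, in an intron, and the sls window is chr3L:2115738-2115938, upstream of the sls start.
tin: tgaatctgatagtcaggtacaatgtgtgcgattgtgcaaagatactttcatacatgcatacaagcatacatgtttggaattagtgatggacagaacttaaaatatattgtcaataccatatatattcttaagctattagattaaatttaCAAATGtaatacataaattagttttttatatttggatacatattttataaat
how: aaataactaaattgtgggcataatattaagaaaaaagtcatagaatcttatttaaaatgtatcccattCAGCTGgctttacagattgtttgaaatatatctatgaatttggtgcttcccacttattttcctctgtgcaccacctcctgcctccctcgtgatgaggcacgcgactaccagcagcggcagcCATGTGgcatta
sls: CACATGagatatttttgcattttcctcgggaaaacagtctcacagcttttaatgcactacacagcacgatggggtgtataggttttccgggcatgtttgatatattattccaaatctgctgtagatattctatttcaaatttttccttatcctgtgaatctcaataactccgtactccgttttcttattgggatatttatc

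The tin window held 1 E-box, the how window 2 and the sls window 1. These windows had GC contents of 25.4%, 40.3% and 36.3%, against a median of 35.8% over the 2420 optimal peaks. None of the 3 held the C/EBP-ATF response element that ATF4 is known to bind, searched on both strands as TGATGNAAC or TGATGNAAT, and that element stood in 1.32% of all optimal windows of the same length. An E-box was found in 62.9% of all optimal windows, so its presence does not set these peaks apart.

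At least 1 optimal peak was found at 4 of the 8 genes, Mef2, tin, how and sls, against 32.3% of all protein-coding genes under the same rule. The 4 genes shared 7 optimal peaks among them, 4 at Mef2 and 1 each at tin, how and sls. No optimal peak was found at twi, bap, Mhc or Act57B. The lists held 2420 optimal peaks out of 24369 candidates called on the pooled reads, and 30000 candidates for each replicate. Peak signal is the authors' own score with no stated unit; it ran from 64.0 to 1274 in optimal peaks, with a median of 96.9, and the highest candidate that failed had 63.96. The files give no read depth, which leaves the precision of a signal value unknown, and with 1 group of 2 libraries no test was made.

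**Figure D1:**
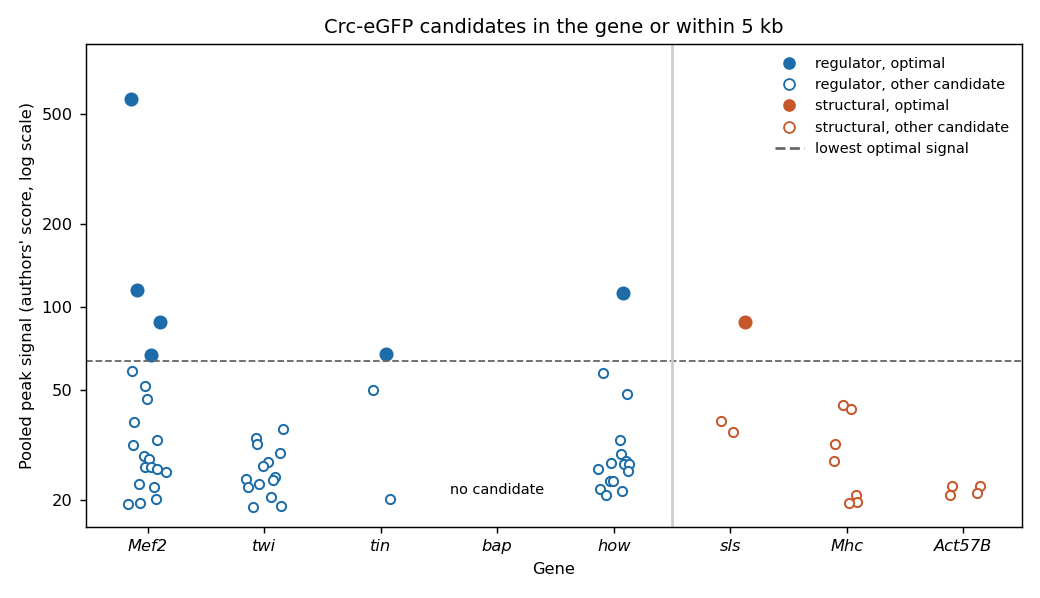
Pooled signal (log scale) of each candidate in or within 5 kb of the 8 genes, regulators in blue and structural genes in orange; filled points are optimal peaks and the dashed line is the lowest optimal signal, 64.0. The Mef2 panel holds the highest point, at 571, bap has no point, and the points of twi, Mhc and Act57B all lie under the line.

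Mef2 (FBgn0011656, chr2R:9913496-9958858, reverse strand) carried the most peaks of the 8 genes, 21 candidates and 4 optimal peaks. The strongest, at chr2R:9959739-9960077, had a signal of 571 in the pooled data, 251 in replicate 1 and 320 in replicate 2. It ranked 22 of the pooled candidates, 20 in replicate 1 and 26 in replicate 2. Its summit lay 1065 bp upstream of the outermost Mef2 start but 155 bp from a start of Pal1, an enzyme gene of neuropeptide amidation, so by the nearest start it belongs to Pal1 rather than to Mef2. It was also the only one of the 7 optimal peaks at these genes for which another gene's start was the nearest.

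The other 3 optimal peaks of Mef2 were nearest to its own starts. An intronic peak at chr2R:9949021-9949420 had a signal of 115, with 50.7 and rank 779 in replicate 1 and 63.9 and rank 1018 in replicate 2; it lay 4457 bp upstream of the middle of the 3 Mef2 starts and 9637 bp inside the gene. A peak at chr2R:9942815-9943214, in a 5' UTR exon 1749 bp downstream of that middle start, had 88.3, with rank 1436 in replicate 1 and 1620 in replicate 2. The fourth, at chr2R:9958713-9959112, had its summit 55 bp upstream of the outermost start, a signal of 67.3 and ranks of 2297 and 2865. All 4 were found in both libraries, and the promoter peak was the weakest of them, close to the lowest optimal signal.

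Mef2 also had 17 candidates that did not pass the filter, with signals from 19.4 to 58.7. Of its 21 candidates, 20 had a counterpart within 100 bp in replicate 2 and 12 in replicate 1. Over all pooled candidates, 64.7% had one in replicate 2 and 61.1% in replicate 1. The strongest of the failed ones, 58.7, lay in an intron 5568 bp from a start and had 23.3 in replicate 1 and 34.7 in replicate 2.

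Among the other early regulators, tin had a weak promoter peak and twi and bap had none. The tin gene (FBgn0004110, chr3R:21378977-21381970) had 1 optimal peak at chr3R:21378496-21378895, its summit 281 bp upstream of the only annotated start. Its signal was 67.4, with 28.8 and rank 2274 in replicate 1 and 38.4 and rank 2450 in replicate 2. A failed candidate of 50 lay 1419 bp upstream of tin and 157 bp from a start of mod(mdg4), a gene of chromatin insulation, and the third candidate, 20.1, also lay nearest to mod(mdg4).

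The bap gene (FBgn0004862, chr3R:21388880-21390449) was the only one of the 8 with no candidate in its window, as were 11.0% of protein-coding genes. It lies downstream of tin, and the windows of these neighbouring NK homeobox genes overlap; no candidate fell in the stretch they share.

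The annotation gives twi (FBgn0003900, chr2R:22985374-23048325) a transcript that starts 60.7 kb upstream of the 2 other starts, so its 63.0 kb span takes in starts of CG9896 and CG42741. Of its 14 candidates, none was optimal, the strongest had 36.3 and rank 6268, and 2 had a twi start as the nearest. None was found in both replicates, 6 matching only replicate 1 and 7 only replicate 2. With the distal transcript left out, a choice made after the data were seen, twi spanned 2.22 kb and kept 3 candidates. The strongest of these, 29.7, lay 2972 bp upstream of a twi start but 193 bp from a start of CG42741. The closest lay 1126 bp from a twi start, in the coding exon of twi.

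The RNA-binding regulator how (FBgn0264491, chr3R:22042191-22079321) resembled Mef2 in having its strongest own peak inside the gene. That peak, at chr3R:22049148-22049547, lay in an intron 7157 bp downstream of the only annotated start. It had a signal of 112 in the pooled data, with 49.8 and rank 809 in replicate 1 and 60.0 and rank 1139 in replicate 2. The stronger of the 2 candidates within 500 bp of the how start, 243 bp downstream, failed with 48.5. Replicate 1 gave it 14.0 and rank 14193, whereas replicate 2 gave it 33.1 and rank 3179. The weaker one, 398 bp upstream, had 21.6. A second intronic candidate, 15114 bp from the start, had 57.9, with 23.3 and 32.2 in the 2 replicates. In all how had 16 candidates, of which 6 were found in both libraries.

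**Figure D2:**
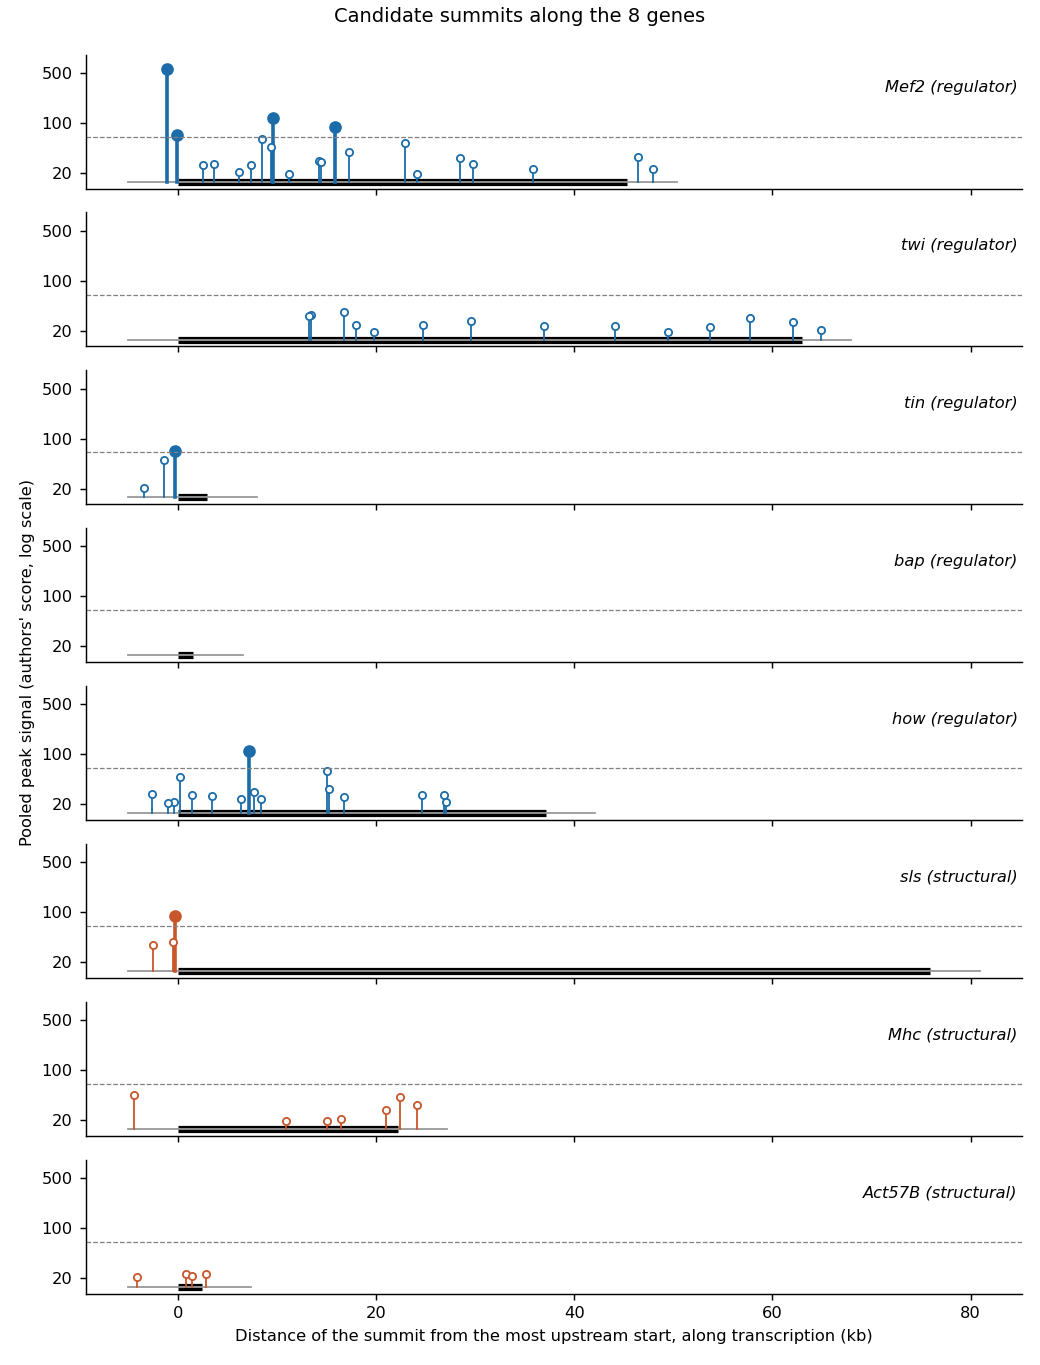
Candidate summits along each gene, as distance from its most upstream start in the direction of transcription (kb); the black bar is the gene, the grey line the 5 kb on each side, stem height the pooled signal (log scale) and filled heads optimal peaks. Mef2 and how have optimal peaks inside the gene, tin and sls just upstream of the start, and the 75.9 kb body of sls holds no candidate.

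Of the structural genes, sls was the only one with an optimal peak. It lay at chr3L:2115638-2116037, 227 bp upstream of the start of sls (FBgn0086906, chr3L:2039681-2115611, reverse strand). Its signal was 88.5, with 35.2 and rank 1573 in replicate 1 and 50.05 and rank 1579 in replicate 2, the closest ranks of the 7 optimal peaks in proportion. The 2 other candidates of sls, 38.6 and 35.2, also lay upstream, the farther one inside the neighbouring gene zormin. The nearer one overlapped the optimal peak. The 75.9 kb body of sls, 73.0% of it coding sequence, held no candidate.

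Mhc and Act57B had weak candidates only. Mhc (FBgn0264695, chr2L:16766566-16788766) had 7, the strongest 4428 bp upstream of its nearest start with a signal of 44.3, rank 4491, and 19.9 and 23.0 in the 2 replicates. None lay within 500 bp of any of its 5 annotated starts, and 1 of the 7 had an Mhc start as the nearest. The next strongest, 42.6 and 32.0, lay past the end of Mhc, in a coding exon and at the start of Cyt-b5-r, a cytochrome b5-related gene. Act57B (FBgn0000044, chr2R:20944021-20946431) had 4 candidates of 20.9 to 22.6, all below the median of 26.1 over all pooled candidates, and the strongest, 820 bp downstream of its start, ranked 16730, with 11.6 in replicate 1 and 10.3 in replicate 2.

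Set side by side, 3 of the 5 regulators and 1 of the 3 structural genes had an optimal peak. The 8 genes were chosen with earlier results of these data known and are not replicates, so this difference was not tested. The regulators' windows held 54 candidates, 6 of them optimal (11.1%), and those of the structural genes 14, with 1 optimal (7.14%); over all pooled candidates the share was 9.93%. The median candidate signal was 27.0 at regulators and 25.2 at structural genes. The highest was 571 at regulators, or 115 without the peak nearest to Pal1, and 88.5 at structural genes.

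Optimal peaks within 500 bp of a start were found at 2 regulators, Mef2 and tin, and at 1 structural gene, sls, together 3 of 8 against 11.5% of protein-coding genes. The peaks of Mef2 and tin there ranked 2865 and 2450 in replicate 2, past the 2420 strongest of that library, so with replicate 2 alone 1 of 8 genes, sls, had a peak at its start. No share of all protein-coding genes is given for that library alone. Inside the gene body an optimal peak was found at 2 regulators, Mef2 and how, and at no structural gene, together 2 of 8 against 7.77% of protein-coding genes. When a peak counted only for the gene with the nearest start, 4 of 8 genes still had an optimal peak, against 12.5% of protein-coding genes.

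A longer gene has a wider window, so the members were also set beside protein-coding genes of similar length. Whether window width accounts for differences between length classes was not tested. In length classes set after the values were seen, 3 of the 4 members of 30 kb or more had an optimal peak (Mef2, how and sls, but not twi), against 48.1% of 670 protein-coding genes of that length. Of the 3 members under 5 kb, 1 had one (tin, but not bap or Act57B), against 28.5% of 10476 genes. Mhc, the only member between, had none, against 42.9% of 2822 genes. The share of protein-coding genes with an optimal peak within 500 bp of a start, a fixed distance, also differed by class. It was 9.77% under 5 kb, 16.5% at 5 to 30 kb and slightly higher still at 30 kb or more. With its distal transcript left out, twi falls in the class under 5 kb, where 1 of 4 members then had an optimal peak, and 3 of 3 members of 30 kb or more had one. With so few members in each class, these shares were not tested.

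Per length, the bodies of the regulators held 2.87 candidates per 10 kb and those of the structural genes 0.597, against 1.87 over all protein-coding gene bodies. Leaving out sls turned the structural value to 2.44, so the low density came from the empty body of that gene. Among regulators the density stayed between 2.48 and 3.45 when any 1 gene was left out. Mef2 had 3.75 and how 3.50 candidates per 10 kb of body, twi 2.07, Mhc 1.80 and Act57B 8.30 from only 2 candidates, and tin and bap had 0. Coding sequence took up 4.73% of the regulators' bodies and 63.5% of those of the structural genes, and the part of this difference in the density was not tested.

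**Figure D3:**
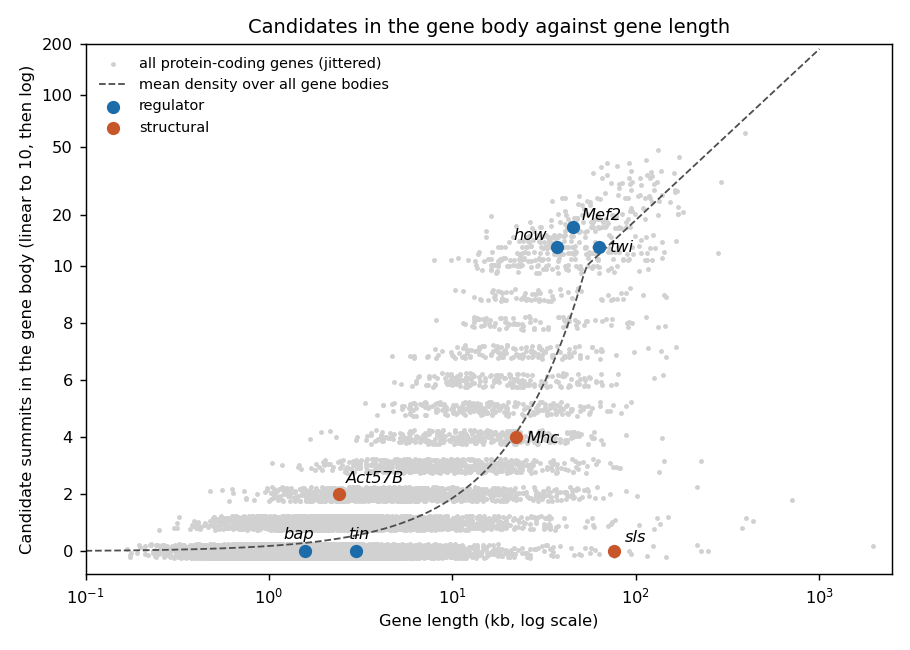
Candidate summits in the gene body (linear up to 10, then log) against gene length (kb, log scale) for all protein-coding genes in grey, regulators in blue and structural genes in orange; the dashed line is the mean density of 1.87 per 10 kb. Mef2 with 17 and how with 13 lie above the line, and sls lies at 0 far below it.

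By location, 12 of the 54 regulator candidates lay within 500 bp of a start of some protein-coding gene, 34 in introns and 3 in coding exons. Of the 14 structural candidates, 3 lay at a start, 5 in introns and 3 in coding exons. Over all pooled candidates the shares were 27.8% at starts, 39.8% in introns and 8.38% in coding exons. The nearest protein-coding start belonged to the gene itself for 34 regulator candidates and 8 structural ones.

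The 7 optimal peaks were found in both replicates by a summit within 100 bp, as were 94.6% of all optimal peaks. Of all 68 candidates at the 8 genes, 25 were found in both libraries, 18 of them at regulators and 7 at structural genes, and 2 in neither; over all pooled candidates 35.6% were found in both. The optimal peaks are among the 25, so 18 of the 61 candidates that did not pass were found in both libraries. The 35.6% includes optimal peaks, and no share over all candidates that did not pass is given here, so this count has no comparison. Replicate lists end at 30000 regions each, so a missing counterpart may be a weak one that fell below the end of the list. Some counterparts were in the lists with a summit farther than 100 bp away. With summits within 200 bp, 34 of the 68 candidates were matched in both libraries, and by any overlap 38.

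**Figure D4:**
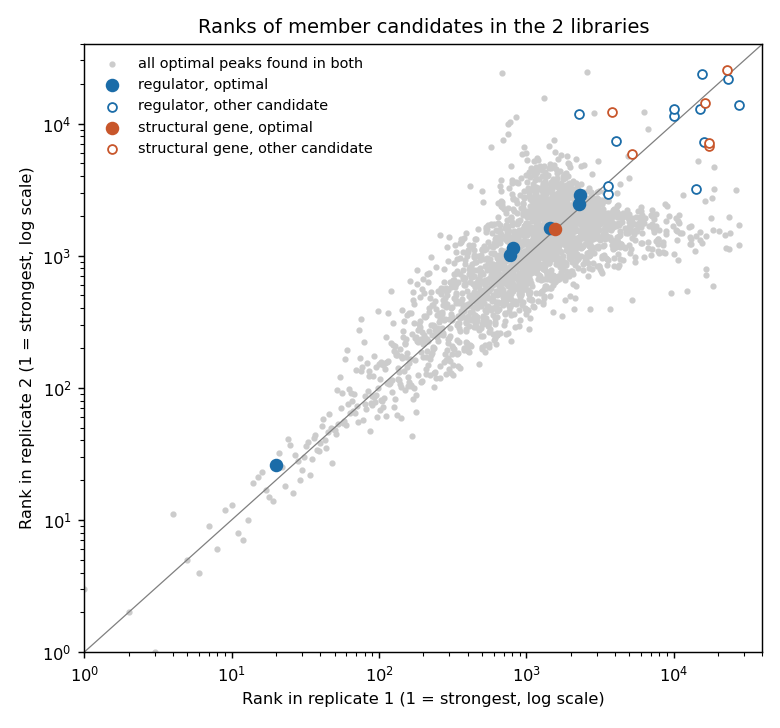
Rank in replicate 1 against rank in replicate 2 (both log scale, 1 is the strongest) for the candidates at the 8 genes that were found in both libraries, over all optimal peaks in grey; filled points are optimal. The peak between Mef2 and Pal1 ranks 20 and 26, and the other 6 optimal peaks rank between 779 and 2865 in both libraries.

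Matching each gene's strongest optimal peak by its 3 ranks, in the pooled list and in the 2 replicates, the most similar other genes were osa and CG18659 for Mef2, CG42542 and Kpc1 for tin, CG34150 and CG5808 for how, and Bcat and CG12725 for sls. The summed distance in log10 rank was 0.131 and 0.149 for the pair of Mef2, 0.0300 for that of tin, 0.0372 for that of how and 0.0232 for that of sls. The genes named for tin, for how and for sls are each a pair that shares 1 peak, and the peak compared for Mef2 is the one nearest to Pal1. These ranks describe 2 libraries and say nothing of shared function.

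Of 9 sequence elements searched within 100 bp of the 7 optimal summits, none marked more than 1 peak except the E-box, which stood at 6. The peak between Mef2 and Pal1 held TGACG, the core of the cyclic AMP response element, 12 bp from the summit, as did 12.4% of all optimal windows. The Mef2 promoter peak held Motif 1 (GGTCACACT), a core promoter element bound by M1BP that stood in 1.45% of all optimal windows. The Mef2 peak in the 5' UTR exon held CAAGTG, a Tinman site that is also an E-box, as did 12.8% of all optimal windows. The response element of ATF4, the DRE (TATCGATA), GAGAG, the Twist E-box CATATG and the MEF2 box were found at none of the 7. In that order, they stood in 1.32%, 3.55%, 22.6%, 7.69% and 0.744% of all optimal windows. CATATG was the only form searched as a Twist E-box. Other E-box forms, such as CACATG in the sls window, were not counted as one.

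Other genes of the same programme were described by 4 lists written with earlier results of these data known. Of 42 further mesoderm regulators, 17 had an optimal peak in the gene or within 5 kb, of 18 myoblast fusion genes 9, of 36 sarcomere genes 13 and of 14 muscle attachment genes 10. These are 40.5%, 50%, 36.1% and 71.4%, beside 32.3% of all protein-coding genes, whose median length of 2.16 kb is below the 8.17 to 10.3 kb of the lists. The median strongest signal per gene was 58.1, 73.3, 53.6 and 89 in the lists and 48.1 over the 12425 genes with a candidate. With the nearest start deciding, 8, 6, 7 and 9 genes of the 4 lists had an optimal peak, or 19%, 33.3%, 19.4% and 64.3%, beside 12.5% of all protein-coding genes. Within 500 bp of a start, the shares were 2.38%, 22.2%, 8.33% and 21.4%, beside 11.5% of all protein-coding genes.

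Among the mesoderm regulators, only chn, a zinc finger gene, had an optimal summit within 500 bp of a start, 1 of 42. The strongest peaks were intronic in zfh1 (226, rank 218), which encodes a zinc finger and homeodomain factor, and intergenic near the forkhead gene slp2 (218, rank 234). Next came tup, a LIM homeobox gene (181), whose peak lay 146 bp from a start of CG10602, then chn (145), dpp, the BMP ligand gene (134), and the T-box gene Doc2 (126), whose peak was shared with Doc3 and lay nearest to a start of CG5194. No candidate was found at sna, eve or Him, while 39 of the 42 had one (92.9%). Of all protein-coding genes, 11.0% had no candidate.

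The sarcomere list was led by Msp300, which encodes a giant nesprin-like protein. Its peak had 348 and rank 76 and lay 347 bp from its start, with rank 68 in replicate 1 and 90 in replicate 2. Strn-Mlck had 205, at a start of CG8320, tmod, the tropomodulin gene, 182 in an intron, Mlp84B, a muscle LIM protein gene, 142, nearest to a start of Alh, and Tm1, a tropomyosin gene, 134, at a start of Cp190. Zasp52, a Z-disc gene, had 110.1. An optimal summit within 500 bp of a start was found at 3 of the 36 sarcomere genes, Msp300, tmod and Mhcl. TpnC4, Zasp67 and Act79B had no candidate, while 33 of the 36 had one (91.7%), beside 11.0% of all protein-coding genes with none.

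Muscle attachment genes, which encode integrins and their partners, were led by stck (331, rank 91), a PINCH gene with its peak 1222 bp from the start, and by the vinculin gene Vinc (155) with its peak 79 bp from the start. The integrin genes mys (119), mew (115) and if (109) and the tendon factor gene sr (111) followed, the strongest peak of mys lying nearest to a start of fs(1)h and that of if 57 bp from a start of goe. An optimal summit within 500 bp of a start was found at 3 of the 14 attachment genes, Vinc, mys and if. Among fusion genes, kirre, which encodes an adhesion protein of founder cells, had 188 at a start of its neighbour Syx4, Pak3, a kinase gene, 175 in an intron, Hem 149, mbc 129, Abi 100.4 and rols 96.8. The Hem summit lay 122 bp from IleRS, the mbc summit 56 bp from Nup98-96 and the Abi summit 24 bp from Polr2B, so these peaks lay closer to the starts of neighbouring genes. Optimal summits within 500 bp of a start were found at 4 of the 18 fusion genes, Hem, mbc, rols and WASp.

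**Figure D5:**
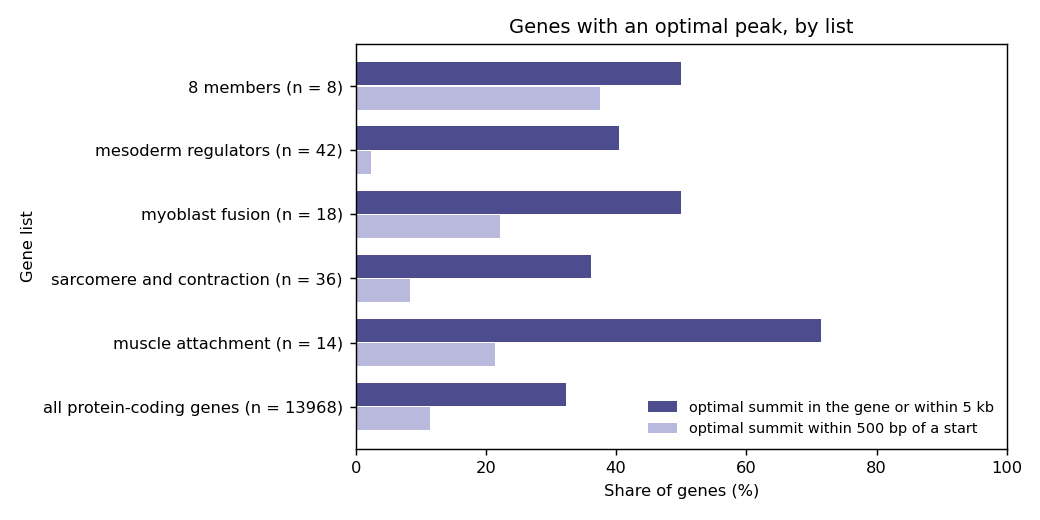
Share of genes (%) with an optimal summit in the gene or within 5 kb (dark bars) and within 500 bp of a start (light bars) for the 8 members, the 4 lists and all protein-coding genes. The dark bars run from 36.1% to 71.4% in the lists against 32.3% of all protein-coding genes, and the light bar of the mesoderm regulators, 2.38%, is the shortest.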

How the data were processed

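The data were peak lists of 2 biological replicates, numbered by the labels; sonicated chromatin had fragments of 200 to 800 bp, per the labels. Candidates were called by the authors against a control, per the deposited file listings, for each replicate and for the pooled reads, and optimal peaks were derived from these lists by the irreproducible discovery rate. The sources used here name no caller or aligner and give no depth. Column 7 is the deposited signal of the authors' caller; its normalization is not stated, and it served only to rank and describe peaks; column 9 is −log10 of a q value in the deposited narrowPeak format and only broke ties in rank. The p-value column is unfilled, and the dm3 lists were not used, since no dm3 annotation was at hand.

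Coordinates are dm6, 1-based. Genes, transcripts and starts came from Ensembl BDGP6.54, release 115, and sequences from the RefSeq copy of Release 6. A summit is the peak start plus the offset in column 10. A summit within 500 bp of a protein-coding start was counted there first, then in a UTR, then in a coding exon, and last in an intron or between genes. A replicate counterpart had its summit within 100 bp. Candidates that overlap each other were counted separately, also in densities. Elements were searched on both strands within 100 bp of the summit; CATATG and CAAGTG are also E-boxes.

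No test was run: there is 1 group, and the members are not replicates. Members and lists were chosen with earlier results of these data known. Genes were named by rule: members, nearest genes of their optimal peaks, up to 6 genes per list with the strongest optimal peak, up to 4 sarcomere genes with no candidate, and 2 genes of most similar rank. CG9896, CG42741, mod(mdg4), zormin, Doc3, Cyt-b5-r, the genes nearest to list peaks, sna, eve, Him, Mhcl, WASp and the other genes longer than 50 kb (Muc14A, Ank2, bt, dpy, Myo81F and pHCl-1) were named after their values were seen. Of 110 list symbols, 2 were renamed in the annotation and found through RefSeq synonyms (Arf51F as Arf6, Unc-89 as Obsc). Peak assignment, nearest-position and element searches were tested on simulated data. Software was Python 3.11.15, numpy 2.4.6, pandas 2.3.3 and, for figures, matplotlib 3.10.9.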

Additional observations from a re-analysis of the deposited data

How the results depend on the processing

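Depth is unknown, so no result could be weighted by it, and values rest on 2 libraries of 1 group. No paired analysis was possible because the series has 1 group. Most counts stayed within 1.5 times their reported value under the alternatives tried, 97 against 26 that moved further. Some of the 97 could not have moved, so this tally does not measure robustness. Among them are optimal-peak counts without the distal twi transcript, as twi had no optimal peak, and element counts of 0 in a narrower window. Counting only summits inside the gene left 2 members, 3 peaks, 0 structural genes and 5, 5 and 5 genes of the mesoderm regulator, fusion and sarcomere lists, beside 7.77% of all protein-coding genes. With 1 kb around the gene the mesoderm regulator and sarcomere lists had 8 and 8 genes (all genes 18.4%), with 2 kb the mesoderm regulators 11 (all genes 22.4%), and with the nearest start deciding these lists had 8 and 7 (all genes 12.5%), while the members kept 42 candidates. Among the 1210 strongest optimal peaks 2 members (Mef2 and how), 3 peaks, 0 structural genes and 0 members with a peak at a start were left, and 7, 5, 7 and 6 genes of the mesoderm regulator, fusion, sarcomere and attachment lists, beside 19.7% of all protein-coding genes. At 200 bp from a start 1 member had an optimal peak there. With the 2420 strongest candidates of 1 library in place of the optimal peaks, 1 member had a peak within 500 bp of a start without replicate 1 and 3 without replicate 2, and tin had none in its window without replicate 1. For these counts at starts, also that among the 1210 strongest peaks, no share of all protein-coding genes is given. They therefore have no comparison. Any overlap of peaks matched 38 candidates in both libraries. With 50 bp each side an E-box stood at 3 of the 7 peaks, and with 200 bp GAGAG at 1 and the Twist E-box CATATG at 2. Leaving out the distal twi transcript, added after the data were seen, took candidates at the 8 genes to 57. It could not change the count of optimal peaks, since twi had none in its full window.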

Other observations

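Among the 313 protein-coding genes longer than 50 kb, sls was one of 17 with no candidate inside the gene, while the median gene of that length held 10. Its coding share of 73.0% was the second highest of these genes, whose median was 4.61%. The 3 genes with the highest shares, the mucin gene Muc14A (92.5%), sls and the ankyrin gene Ank2 (65.9%), all had 0 candidates inside. Msp300, with 61.9% coding sequence, had 14 in its body, and bt, which encodes the titin-like protein projectin, had 8 with 51.7% coding sequence. Next came dpy, with 50.3% and 7 candidates. The cut at 3 genes was set after the values were seen, and a link of coding share with empty bodies was not tested. Of the other genes among the 17, 6 lie on Y, an arm on which the lists hold no peak, and 8 lie on other arms with low coding shares, between 0.318% (Myo81F) and 6.71% (pHCl-1).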
